A study of Mus musculus with 8 samples.

Results

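The neuropeptide ligands and receptors of the mouse pituitary were followed through 10 genes, of which 3 encode ligands (Adcyap1, Vip and Nmb) and 7 encode receptors (Adcyap1r1, Vipr1, Vipr2, Galr1, Galr2, Tacr1 and Mtnr1a). They were picked by gene symbol out of 49585 gene rows per library, and each symbol had a row in all 8 libraries. Whole pituitary of wild type C57BL/6 mice was profiled by RNA-seq in 2 ages, the old group at 18 to 24 months (n = 4 libraries) and the young group at 2 to 3 months (n = 4 libraries). All mice were perfused to remove circulating blood cells. Nothing in the labels tells whether the libraries of an age came from separate mice, so p-values measure the spread between these libraries, which may be technical. Neither age carried a transgene, a deletion or a drug.

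The pituitary is driven by peptides that reach it from the hypothalamus and by peptides that its own cells release. PACAP, the product of Adcyap1, took its name from its stimulation of adenylate cyclase in pituitary cells, and VIP, its close relative, is known to release prolactin. PACAP acts mainly on PAC1 (Adcyap1r1), while VPAC1 (Vipr1) and VPAC2 (Vipr2) take both peptides, and all of these receptors raise cAMP. Galanin, which lactotrophs themselves make, acts through GALR1, which lowers cAMP, and GALR2, which couples to Gq. Neuromedin B (Nmb) is a bombesin-like peptide, the NK1 receptor (Tacr1) takes substance P and couples to Gq, and the MT1 receptor (Mtnr1a) takes melatonin, in the pituitary chiefly in the pars tuberalis.

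The start of the Vip gene is shown next to those of its sister ligand gene Adcyap1 and of Tacr1, the receptor gene with the clearest separation of the ages, because all of them hold TGACG, the half-site of the cAMP response element. The windows run from 250 bases before to 50 bases after the annotated start and are RefSeq sequence of the build GRCm38.p6, printed 5′ to 3′ on the gene's strand, with the half-site in capitals. The Vip window is chr10:5638968-5639267 (+ strand), with the half-site at position -79 from the start. The Adcyap1 window is chr17:93198767-93199066 (+ strand), with the half-site at -91. The Tacr1 window is chr6:82402225-82402524 (+ strand), where the half-site lies on the opposite strand at -226 and is therefore read as CGTCA. This RefSeq start lies downstream of the start of the Tacr1 gene in the GENCODE annotation, from which the gene coordinates below are taken.
Vip: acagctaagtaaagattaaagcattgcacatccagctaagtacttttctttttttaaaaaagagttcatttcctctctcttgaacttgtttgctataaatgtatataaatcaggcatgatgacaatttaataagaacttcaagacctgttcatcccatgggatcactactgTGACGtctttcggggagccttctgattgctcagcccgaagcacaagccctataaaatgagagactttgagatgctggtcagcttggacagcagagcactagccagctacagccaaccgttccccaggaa
Adcyap1: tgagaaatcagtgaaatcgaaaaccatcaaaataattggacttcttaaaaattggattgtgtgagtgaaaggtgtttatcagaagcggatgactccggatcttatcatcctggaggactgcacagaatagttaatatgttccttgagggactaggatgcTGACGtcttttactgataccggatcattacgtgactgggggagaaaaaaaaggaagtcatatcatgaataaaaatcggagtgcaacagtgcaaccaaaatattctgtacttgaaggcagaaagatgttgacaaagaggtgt
Tacr1: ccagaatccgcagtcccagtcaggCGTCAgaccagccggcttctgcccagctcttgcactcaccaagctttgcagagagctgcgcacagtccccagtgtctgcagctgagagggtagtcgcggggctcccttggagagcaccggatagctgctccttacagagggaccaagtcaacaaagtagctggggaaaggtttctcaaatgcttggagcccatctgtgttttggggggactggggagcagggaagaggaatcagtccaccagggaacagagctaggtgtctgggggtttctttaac

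RefSeq held 10 such windows for 9 of the genes, and Galr1 had none. On either strand, TGACG was found in 5 windows of 4 genes (Vip, Adcyap1 with both of its starts, Vipr1 and Tacr1), and in 20.8% of the 32851 mouse windows of the same length. The Adcyap1 windows overlap and hold the same half-site, which is counted in both. The full element TGACGTCA, which contains the half-site, was found for 0 of these genes, against 1.79% of all windows. The TATA box TATAAA was found for Vip and Adcyap1, against 13.6% of all windows. These are matches of letters only.

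The libraries held 16098530 to 19272104 fragments in old and 15042321 to 20429604 in young pituitary. A floor of 3 fragments, about the one-sided upper 95% limit for a count of 0, corresponded to 0.147 to 0.199 CPM (fragments of a gene relative to the library total). Pituitary hormone genes took 9.05% to 11.6% of the fragments in old and 11.99% to 14.1% in young libraries, which fits the label. Prl was at 83140 ± 10695 FPKM in old and 82116 ± 4883 FPKM in young pituitary (SD, n = 4 each). Gh was at 24327 ± 3157 FPKM in old and 62323 ± 5846 FPKM in young pituitary, and passed the test below as lower (limma adjusted p = 0.0076). Ribosomal RNA repeat genes took 33.8% to 38.1% of the fragments in old and 33.8% to 40.3% in young libraries. Genes of the Y chromosome (Ddx3y, Eif2s3y, Kdm5d and Uty) were at 0 in all libraries, and Xist was at 22.5 to 43.5 FPKM in old and 24.2 to 31.4 FPKM in young libraries. Old library 4 stood apart in genes of the posterior lobe. Oxt, the oxytocin precursor of its nerve endings, was at 4.68 FPKM there and at 0 to 0.231 FPKM in the other old libraries, against 0 in all young libraries. Scn7a, a pituicyte marker, was at 3.00 FPKM in old library 4 and at 0.0212 to 0.107 FPKM elsewhere. Summed red blood cell genes ranged from 15.9 to 124 FPKM in old and from 13.0 to 110 FPKM in young libraries. Of 6 macrophage markers, C1qb and Lyz2 passed the test below as higher in old pituitary, and the summed list was at 63.5 to 86.6 FPKM in old and 29.1 to 49.7 FPKM in young libraries.

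Of the 10 genes, 5 had a mean of at least 0.1 FPKM over the 8 libraries and were tested with all 23498 genes of that level, by limma on log2(FPKM + 0.1) with Benjamini-Hochberg adjustment. None of the 5 passed an adjusted p of 0.05 in either direction, and 2 (Vip and Galr1) had an unadjusted p under 0.05. Over the whole fit, 436 genes (1.86%) passed as higher in old pituitary and 111 (0.472%) as lower, 547 (2.33%) in all. With libraries rescaled by relative log expression, that split was 208 higher and 215 lower, and with an upper-quartile scale it was 214 and 215. Across the fit, the middle log2 fold change was 0.15 with the deposited scaling and 0.01 with either rescaling, so the fold changes below stand on a background shifted by that much. The median over the 5 was 0.41, with 3 fold changes above 0 and 2 below. In 0 of the 5 did the 2 ages fail to overlap, whereas for 13.4% of all genes tested every old library was above every young one and for 2.06% every old library was below. Since whole glands were sequenced, fewer cells of a type and less RNA per cell cannot be told apart in any of these values.

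**Figure D1:**
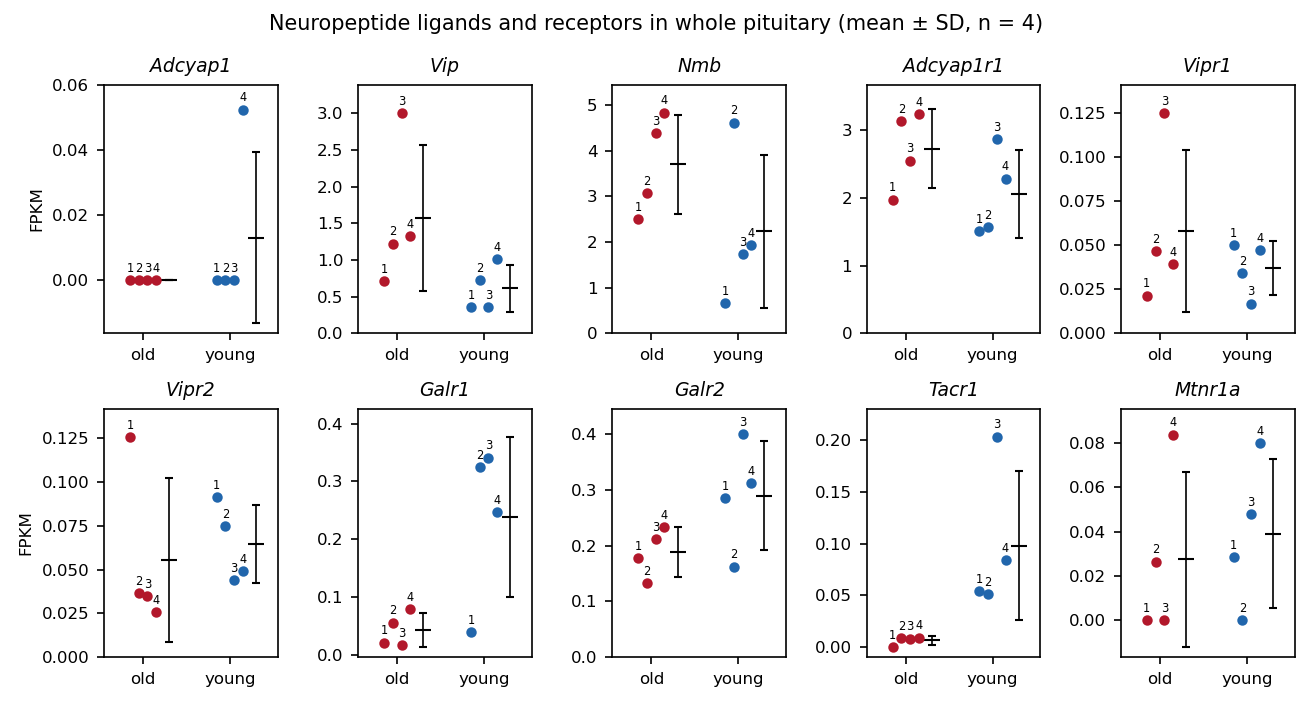
FPKM of each of the 10 genes in every library (points, numbered by replicate), with the mean and SD (bars, n = 4 per age), old left of young, each panel on its own linear scale. The old points of Tacr1 lie between 0 and 0.00881 FPKM, below all young points, and Adcyap1 is above 0 in young library 4 only.

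Among the ligands, Vip lay on chromosome 10 (5639218 to 5647617, + strand; gene coordinates here and below are GRCm38) and was at a moderate level. It measured 0.712, 1.22, 3.00 and 1.33 FPKM in old libraries 1 to 4, against 0.359, 0.723, 0.360 and 1.01 FPKM in young libraries 1 to 4. The highest library was old 3 and the lowest were young 1 and 3, and old 1 fell below young 2 and 4, so the ages overlapped. The means were 1.57 ± 0.995 FPKM in old and 0.614 ± 0.316 FPKM in young pituitary (SD, n = 4 each). The log2 fold change was 1.16 (SE 0.46), which did not pass the test (limma adjusted p = 0.20, unadjusted p = 0.037). Counted as whole fragments, Vip had 392 in old and 146 in young pituitary, a depth-corrected ratio of 2.67 with an exact 95% interval of 2.20 to 3.25 that covers counting error only. Without old library 3 the log2 fold change was 0.80 (adjusted p = 0.35), and without old library 4, with its posterior lobe genes, it was 1.17 (adjusted p = 0.28).

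Adcyap1, on chromosome 17 (93199017 to 93206537, + strand), was at the limit of detection. It was at 0 FPKM in all old libraries and in young libraries 1, 2 and 3, and at 0.0524 FPKM in young library 4, read as 1 fragment at the shortest gene length that gives a whole number; a longer gene model would give a few more. No permutation test was made, and PACAP mRNA was not detectable in old pituitary at this depth.

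Nmb, on chromosome 7 (80902227 to 80905076, - strand), had the highest mean of the 10 genes at both ages. It measured 2.51, 3.07, 4.38 and 4.83 FPKM in old libraries 1 to 4, against 0.660, 4.61, 1.73 and 1.93 FPKM in young libraries 1 to 4. Young library 2 was as high as the old libraries, whereas the other young ones were below all of them. The means were 3.70 ± 1.09 FPKM in old and 2.23 ± 1.68 FPKM in young pituitary (SD, n = 4 each). The log2 fold change of 0.95 (SE 0.52) did not pass the test (limma adjusted p = 0.33), and it was 0.50 without young library 1 and 1.38 without young library 2. The exons of Nmb share 163 of their 793 bases with Sec11a on the same strand, and reads from that stretch cannot be assigned to one gene.

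Among the receptors, only Adcyap1r1 reached the level of Vip and Nmb. This gene for PAC1, on chromosome 6 (55451978 to 55501451, + strand), measured 1.98, 3.14, 2.55 and 3.24 FPKM in old libraries 1 to 4, against 1.52, 1.57, 2.87 and 2.29 FPKM in young libraries 1 to 4. Old 1 was lower than young 3 and 4, and old 3 was lower than young 3, so the ages overlapped. The log2 fold change was 0.41 (SE 0.24) and did not pass the test (limma adjusted p = 0.37). It rested on 1292 fragments in old and 991 in young pituitary, the most of any of the 10 genes.

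The shared VIP and PACAP receptors were near the limit of detection at both ages. Vipr1, on chromosome 9 (121642716 to 121672954, + strand), had 2, 5, 14 and 4 fragments in old libraries 1 to 4, against 5, 3, 2 and 5 in young libraries 1 to 4. Its mean was 0.0582 ± 0.0460 FPKM in old and 0.0371 ± 0.0151 FPKM in young pituitary (SD, n = 4 each), and the difference did not pass an exact permutation test (two-sided p = 0.54). Old library 3 alone made it positive: without it the difference was -0.00131 FPKM.
Vipr2, on chromosome 12 (116077726 to 116146261, + strand), had 9, 3, 3 and 2 fragments in old libraries 1 to 4, against 7, 5, 4 and 4 in young libraries 1 to 4. Its mean was 0.0555 ± 0.0467 FPKM in old and 0.0646 ± 0.0222 FPKM in young pituitary (SD, n = 4 each; exact permutation p = 0.74, two-sided). The fragments of both receptors were few enough that the depth-corrected ratios of old to young ran from 0.840 to 3.38 for Vipr1 and from 0.416 to 1.70 for Vipr2 (exact 95% intervals).

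**Figure D2:**
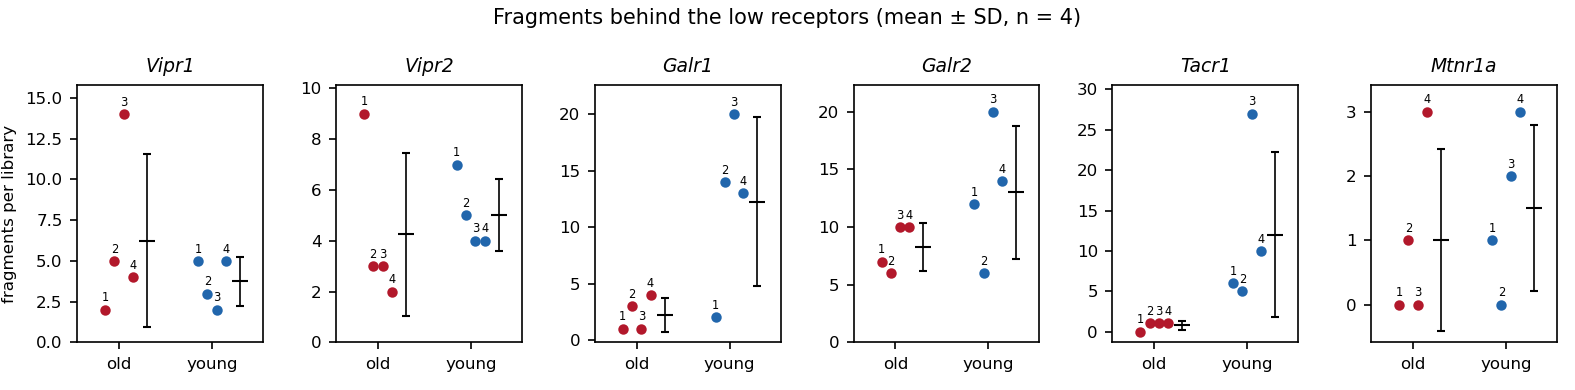
Fragments per library behind the 6 receptor genes of low level (points, numbered by replicate, old left of young; bars are mean and SD, n = 4), on linear scales. Tacr1 has 0 or 1 fragment in each old library and 5 to 27 in the young ones, while Vipr1 and Mtnr1a overlap between the ages.

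Of the galanin receptors, Galr1 had the lower values in old pituitary apart from 1 young library. This gene, on chromosome 18 (82392380 to 82406777, - strand), measured 0.0216, 0.0565, 0.0181 and 0.0797 FPKM in old libraries 1 to 4, against 0.0405, 0.324, 0.341 and 0.248 FPKM in young libraries 1 to 4. Young library 1 lay within the old range, and the other young libraries were above all old ones. The means were 0.0440 ± 0.0294 FPKM in old and 0.238 ± 0.138 FPKM in young pituitary (SD, n = 4 each). The log2 fold change was -1.12 (SE 0.37) and did not pass the test (limma adjusted p = 0.14, unadjusted p = 0.018). Without young library 1 it was -1.50 and passed (adjusted p = 0.036), but 17 of 18 alternative fits left it uncalled. Galr1 reached the filter through its young libraries only, as its old mean was under 0.1 FPKM. The counts were 9 fragments in old and 49 in young pituitary, a ratio of 0.183 (exact 95% interval 0.0789 to 0.376, counting error only).

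Galr2, on chromosome 11 (116280939 to 116283938, + strand), had 0.177, 0.132, 0.211 and 0.233 FPKM in old libraries 1 to 4, against 0.284, 0.162, 0.399 and 0.312 FPKM in young libraries 1 to 4. Young library 2 fell within the old range and the other young libraries were above it. The log2 fold change of -0.41 (SE 0.21) did not pass the test (limma adjusted p = 0.30). Because the scale adds 0.1 FPKM before the logarithm, it understates the change of genes as low as Galr1 and Galr2.

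Tacr1 was the one gene of the 10 in which the ages did not overlap. The gene for the NK1 receptor, on chromosome 6 (82402334 to 82560104, + strand), had 0, 1, 1 and 1 fragments in old libraries 1 to 4, against 6, 5, 27 and 10 in young libraries 1 to 4. In FPKM this was 0, 0.00833, 0.00799 and 0.00881 in the old libraries, against 0.0538, 0.0512, 0.204 and 0.0842 in the young ones. Every old library was thus below every young library, and young library 3 held 27 of the 48 young fragments. The mean was lower by 0.0919 FPKM in old pituitary, with an exact permutation p of 0.029 (two-sided), the smallest that 4 libraries against 4 allow. That p was not adjusted for the other genes tested in this way. The depth-corrected ratio was 0.0622 (exact 95% interval 0.0124 to 0.193, counting error only).

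Among 4611 gene rows under the 0.1 FPKM filter with at least 3 libraries above 0, 78 (1.69%) had every old library below every young one and 149 (3.23%) had every old library above. Of the 4 genes of the 10 in that class (Tacr1, Vipr1, Vipr2 and Mtnr1a), only Tacr1 did not overlap. In a fit to the recovered fragments with no filter (limma-voom, added after the values were seen), Tacr1 had a log2 fold change of -3.22 (SE 0.57, adjusted p = 0.0035) and was the only one of the 10 that passed. That fit called 1251 of 32567 rows (3.84%) higher and 358 (1.1%) lower in old pituitary, and 39 of 4610 (0.846%) lower among the rows under the filter. The remaining 9 genes had adjusted p-values of 0.068 (Vip) and above in it. With no filter, limma on log2(FPKM + 0.1) also tested all 10 genes and called 0 of them, Tacr1 included.

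Mtnr1a, on chromosome 8 (45069137 to 45088506, + strand), had 0, 1, 0 and 3 fragments in old libraries 1 to 4, against 1, 0, 2 and 3 in young libraries 1 to 4. Its mean was 0.0275 ± 0.0394 FPKM in old and 0.0390 ± 0.0336 FPKM in young pituitary (SD, n = 4 each; exact permutation p = 0.74, two-sided). A difference in the melatonin receptor was therefore not detectable at this depth. Of the 10 genes of the melatonin-linked list, Tshb, the clock genes and Cga among them, 0 passed in either direction (median log2 fold change 0.19). Cga, the common glycoprotein hormone subunit, was at 1104 ± 432 FPKM in old and 1008 ± 171 FPKM in young pituitary (SD, n = 4 each), and its log2 fold change changed sign with the library scaling. Nr1d1, the clock repressor REV-ERBα, was at 20.7 ± 4.74 FPKM in old and 17.0 ± 3.46 FPKM in young pituitary (SD, n = 4 each; limma adjusted p = 0.47).

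Ordered by mean FPKM, which is per length of exon, the genes in old pituitary ran Nmb, Adcyap1r1, Vip, Galr2, Vipr1, Vipr2, Galr1, Mtnr1a, Tacr1 and Adcyap1. Only 2 pairs of neighbours in that order had ranges over the libraries that did not overlap, Vip above Galr2 and Galr2 above Vipr1. In young pituitary the order ran Nmb, Adcyap1r1, Vip, Galr2, Galr1, Tacr1, Vipr2, Mtnr1a, Vipr1 and Adcyap1, and only Adcyap1r1 and Vip stood apart. Of the 32579 gene rows detected, 70.9% had a mean below that of Nmb, 67.2% below Adcyap1r1 and 56.3% below Vip, and the 7 others exceeded 4.16% (Adcyap1) to 38.2% (Galr2) of the rows.

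**Figure D3:**
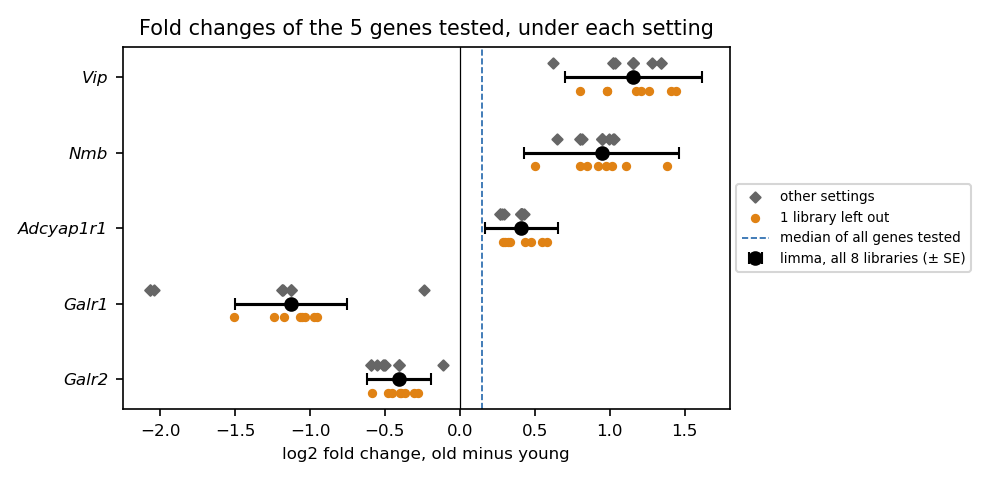
Log2 fold change, old minus young, of the 5 genes tested (x axis; black points with SE, limma on log2(FPKM + 0.1)), with the values under the other settings (grey) and with 1 library left out (orange); the dashed line is the median of all genes tested, 0.15. Each gene keeps its side of 0, and Galr1 spreads from -2.07 to -0.24 over the settings.

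Paralogues were also compared within each library, after adding 0.1 FPKM to both genes, a constant that weighs on genes this low. The log2 ratio of Galr1 to Galr2 was -1.19, -0.57, -1.40 and -0.89 in old libraries 1 to 4, against -1.45, 0.69, -0.18 and -0.24 in young libraries 1 to 4. Young library 1 had the lowest ratio of all 8, and the difference of -0.72 did not pass an exact permutation test (two-sided p = 0.20, 0.30 after adjustment over 3 ratios). That difference was -0.12 with 1 FPKM added and -1.49 with 0.01 FPKM added. The ratio of Vipr1 to Vipr2 differed by 0.29 (exact permutation p = 0.49, 0.49 adjusted). That of Adcyap1 to Vip differed by -1.31 (exact permutation p = 0.057, 0.17 adjusted) and is set by the level of Vip in the 7 libraries where Adcyap1 was at 0.

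The ligands for these receptors were read from the same libraries, where the gland itself makes them. Gal, the galanin precursor, was at 32.0, 32.4, 37.0 and 36.9 FPKM in old libraries 1 to 4, against 38.4, 31.4, 32.3 and 35.1 FPKM in young libraries 1 to 4. It was far above every gene of the 10 and overlapped between the ages (log2 fold change 0.01, SE 0.11, limma adjusted p = 0.96), with a sign that turned when the libraries were rescaled (-0.14 by relative log expression). Spx, for spexin, a ligand of GALR2, averaged 0.196 FPKM in old and 0.220 FPKM in young pituitary (adjusted p = 0.74), and Galp was listed at 0 throughout. Tac1, the precursor of substance P, had 7 fragments in old and 12 in young pituitary, and 8 of the 12 were in young library 4.
Tac4, which encodes hemokinin, another ligand of NK1, was at 0.497, 0.303, 2.57 and 0.274 FPKM in old libraries 1 to 4, against 0.186, 0.106, 0 and 0.393 FPKM in young libraries 1 to 4. Old library 3 stood far above the rest, young library 4 lay within the old range, and the log2 fold change of 1.59 (SE 0.73) did not pass the test (limma adjusted p = 0.26). So 0 of the 3 ligand genes tested passed.

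Nmbr, the receptor of neuromedin B, was under the filter and had 8, 3, 3 and 2 fragments in old libraries 1 to 4, against 1, 0, 0 and 1 in young libraries 1 to 4. Every old library was above every young one. The total of 16 fragments in old against 2 in young pituitary gave a depth-corrected ratio of 7.96 with a wide exact 95% interval, 1.87 to 71.3, and the fit to fragments with no filter gave an adjusted p of 0.047.
Tacr3, the NK3 receptor of neurokinin B, had 1, 4, 0 and 2 fragments in old libraries 1 to 4, against 1, 14, 11 and 8 in young libraries 1 to 4, overlapping through young library 1. Tacr2, the NK2 receptor, had 1 fragment in all 8 libraries together, in old library 4, and Mtnr1b, the other melatonin receptor, was listed at 0. Sctr, the secretin receptor, averaged 0.0673 FPKM in old and 0.106 FPKM in young pituitary. Gpr83, a receptor that binds the peptide PEN, was the only gene of this group above the filter, at 0.282 ± 0.107 FPKM in old and 0.608 ± 0.193 FPKM in young pituitary (SD, n = 4 each; log2 fold change -0.89, limma adjusted p = 0.15). Galr3 was not analysed here.

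**Figure D4:**
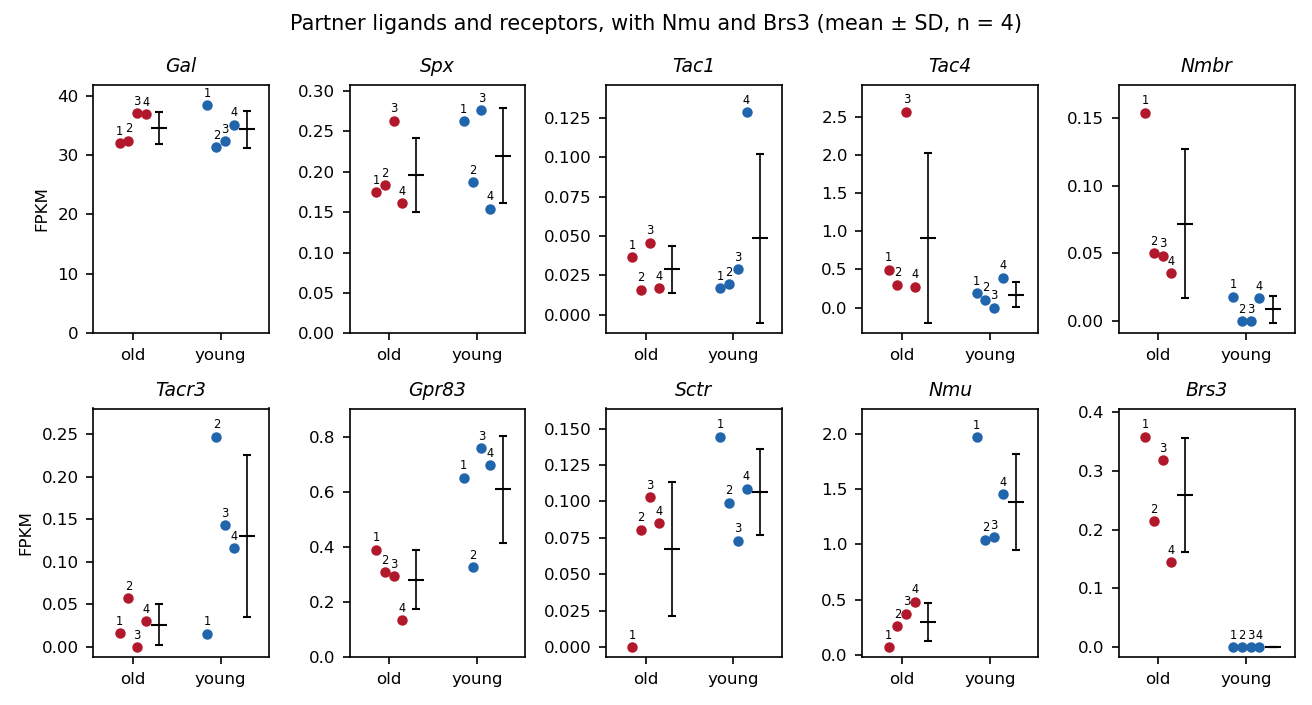
FPKM per library of 8 ligand and receptor genes read beside the 10, with Nmu and Brs3. These 2 were the further neuropeptide genes that passed the test. Points are numbered by replicate, with mean and SD (n = 4), old left of young, on linear scales. Gal sits between 31.4 and 38.4 FPKM at both ages, Nmu is lower in every old library, and Brs3 is above 0 in old libraries only.

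Set against other neuropeptide systems, 1 of 17 further ligand genes tested and 1 of 19 further receptor genes tested passed. Nmu, for neuromedin U, fell in old pituitary, at 0.075, 0.261, 0.376 and 0.483 FPKM in old libraries 1 to 4, against 1.97, 1.04, 1.06 and 1.45 FPKM in young libraries 1 to 4. All old libraries were below all young ones (log2 fold change -1.98, SE 0.39, limma adjusted p = 0.048), but the gene passed in none of the 8 fits with 1 library left out. Brs3, an orphan receptor of the bombesin family to which Nmbr also belongs, had 16, 11, 17 and 7 fragments in old libraries 1 to 4, against 0 in every young library. It was 16.9-fold higher in old pituitary when the young libraries together are set at the floor of 3 fragments. The exact 95% interval of the ratio, which also counts the error of the old fragments, starts at 13.3. Brs3 passed the test (limma adjusted p = 0.011), but it reached the filter through its old libraries only. Without old library 1 it fell under the filter and was not tested.
The median log2 fold change was -0.21 for these ligand genes and -0.16 for the receptor genes, against 0.15 for all genes tested.

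Of the 9 receptors for hypothalamic releasing factors, all above the filter, 2 rose, 2 fell and 5 did not pass. Trhr, the receptor of thyrotropin-releasing hormone, averaged 1.98 ± 0.713 FPKM in old and 0.506 ± 0.230 FPKM in young pituitary (SD, n = 4 each; limma adjusted p = 0.037), and lost its call in 7 of 8 fits with 1 library left out and under each of the rescalings. Crhr2, a receptor of the urocortins, had 109 fragments in old and 3 in young pituitary (adjusted p = 0.022), and lost its call in 3 of those 8 fits. Crhr2 also lost it with a pseudocount of 1 FPKM (limma adjusted p = 0.063). Like Brs3, Crhr2 reached the filter through its old libraries only. Gnrhr, the gonadotropin-releasing hormone receptor, averaged 5.32 ± 1.09 FPKM in old and 13.4 ± 1.54 FPKM in young pituitary (SD, n = 4 each; limma adjusted p = 0.017), and Ghsr, the ghrelin receptor, averaged 0.117 ± 0.0680 FPKM in old and 0.650 ± 0.243 FPKM in young pituitary (SD, n = 4 each; limma adjusted p = 0.036). With 1 library left out, the call of Ghsr was lost in 6 of 8 fits and that of Gnrhr in 1, the fit without young library 3 (adjusted p = 0.054). Trhr and Gnrhr also mark thyrotrophs and gonadotrophs. Of other markers of these cells, Dio2 averaged 29.6 ± 15.9 FPKM in old and 7.37 ± 0.867 FPKM in young pituitary (SD, n = 4 each; limma adjusted p = 0.046). Lhb averaged 136 ± 9.11 FPKM in old and 233 ± 39.3 FPKM in young pituitary (SD, n = 4 each; limma adjusted p = 0.044). Tshb averaged 9.06 FPKM in old and 8.21 FPKM in young pituitary (limma adjusted p = 0.73). Gata2 was higher in every old library, at 6.10 FPKM in old and 2.80 FPKM in young pituitary (limma adjusted p = 0.059). Fshb averaged 52.8 FPKM in old and 32.6 FPKM in young pituitary, and Nr5a1 4.38 and 5.30 FPKM. Neither passed. Of the 3 thyrotroph markers, 2 passed as higher and 1 did not pass. Of the 5 gonadotroph markers, 2 passed as lower and 3 did not pass. The part of these cells in the values of Trhr and Gnrhr was not tested.

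Downstream of the receptors, 1 of 29 cAMP signalling genes tested was higher in old pituitary, 0 were lower, and the median log2 fold change was 0.15. It was Adcy9, an adenylate cyclase, at 2.28 to 2.81 FPKM in old and 1.71 to 1.82 FPKM in young libraries (limma adjusted p = 0.044), a call lost in all 8 fits with 1 library left out (adjusted p 0.068 to 0.12) and under each of the rescalings. Of 15 genes of Gq and calcium signalling, 1 was lower and 0 were higher. That was Rgs4, a brake on Gq and Gi signalling, at 2.84 ± 0.267 FPKM in old and 6.00 ± 1.02 FPKM in young pituitary (SD, n = 4 each; limma adjusted p = 0.022), with the call lost in 5 of 8 fits with 1 library left out. Of the 11 immediate early genes that cAMP induces, 0 passed, with a median log2 fold change of -0.46. Junb averaged 75.3 ± 14.9 FPKM in old and 77.4 ± 12.6 FPKM in young pituitary (SD, n = 4 each). Nr4a1 ranged from 19.8 to 120 FPKM in old and from 71.0 to 140 FPKM in young libraries, with old library 4 the highest of the old ones (limma adjusted p = 0.25).

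Vip and Tac1 are also genes of nerve fibres, and neuron and nerve markers were read beside them. The 7 markers of sensory ganglion neurons summed to 2.72 to 3.23 FPKM in old and 2.597 to 2.90 FPKM in young libraries, and 0 of the 4 tested passed. The highest were P2rx3, at 2.01 ± 0.126 FPKM in old and 1.89 ± 0.121 FPKM in young pituitary, and Scn10a, at 0.578 ± 0.126 FPKM in old and 0.471 ± 0.186 FPKM in young pituitary (SD, n = 4 each). Pou4f1 averaged 0.267 FPKM in old and 0.151 FPKM in young pituitary (limma adjusted p = 0.20), and Trpv1 averaged 0.00388 FPKM in old and 0.0240 FPKM in young pituitary. Among 5 Schwann cell markers, Mbp passed as higher in old pituitary, and the sum was 6.95 to 7.59 FPKM in old and 5.03 to 5.76 FPKM in young libraries. The 6 central neuron markers summed to 24.6 to 33.7 FPKM in old and 20.6 to 27.1 FPKM in young libraries. Slc32a1 was called higher, and the other 4 tested did not pass. Most of the sum was Snap25, at 17.4 FPKM in old and 16.2 FPKM in young pituitary. Next came Slc17a6, at 6.15 FPKM in old and 3.95 FPKM in young pituitary, and Gad2, at 4.24 and 3.68 FPKM. Rbfox3 averaged 0.349 FPKM in old and 0.313 FPKM in young pituitary, and Gad1 was near 0 at both ages. The part of these markers in the values of Vip was not tested.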

How the data were processed

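RNA of whole pituitary (TIANGEN RNAprep kit) from 4 old and 4 young libraries was sequenced by the authors on a HiSeq instrument. Base calls came from CASAVA 1.9, and reads were aligned with STAR 2.6.1a to GRCm38 with default parameters, as the submitters' processing notes and the methods state. Read pairs were counted by the authors over Ensembl exons with featureCounts and converted with edgeR 3.28.1 to the deposited unit, FPKM (fragments per length of exon and per size of library). Which Ensembl release and strand setting were used is not given in the sources used here. Since the study tested counts and the files hold FPKM, limma 3.58.1 (R 4.3.3, trend and robust off) was run here on log2(FPKM + 0.1) for the 23498 genes that averaged 0.1 FPKM or more, adjusted by Benjamini-Hochberg, with calls at 0.05. Genes under that filter were compared by exact permutation of the mean FPKM (70 arrangements, smallest two-sided p 0.029).

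Fragments were recovered from FPKM with GENCODE M21 exon lengths (27048 rows) or, where these gave no whole numbers (5519 rows, Galr1 and Adcyap1 among them), with the smallest length that did. Then 91.8% to 92.8% of low values were whole within 0.01, and 99.9% of each library's total was recovered. Intervals are exact at 95% and, like the floor of 3 fragments, cover counting error only. Ratio intervals are conditional on the sum of both ages. Promoter windows came from RefSeq (GRCm38.p6). The scripts were tested on simulated data. The 10 genes, the 9 pathway lists, the 18 marker lists and the named genes (every listed gene that passed, otherwise the 2 of highest mean, and all partner ligands and receptors) were chosen with earlier results of these data known. Alternatives were another pseudocount, filter or scaling, limma-trend, voom, a replicate block, and each library left out. The same number in both ages does not mark a shared animal, and the labels do not say whether it marks a batch.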

Additional observations from a re-analysis of the deposited data

Results flagged for a closer look

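For normally distributed values, Dixon's criterion flags about 1 in 20 groups by chance, a rate that does not hold for counts of 0 or 1 fragment. Of 72 groups of 4 libraries looked at, 8 held a library far from the other 3 by this criterion. Among the 10 genes these were Adcyap1 in young library 4 (0.0524 FPKM against 0 in the other young libraries), Vipr2 in old library 1 (0.125 FPKM, the highest old value) and Tacr1 in old library 1 (0 FPKM, with 1 fragment in each of the other old libraries, so that the gap is 1 fragment). Among the ligand and receptor genes read beside the 10, they were Tac4 in old library 3 (2.57 FPKM) and Nmbr in old library 1 (0.154 FPKM). Tacr2 in old library 4 (0.0253 FPKM, 1 fragment) and Tac1 in young library 4 (0.129 FPKM) were also flagged. Each was the highest of its age. Junb was highest in young library 2 (96.3 FPKM).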

How the results depend on the processing

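The number of all genes higher and lower in old pituitary moved with the processing, while 0 of the 10 genes was called higher in any setting that tested it (5 of them in most settings, 3 with the filter at 0.5 FPKM and all 10 with no filter). Beside 436 higher and 111 lower, the calls were 689 and 138 with a pseudocount of 1 FPKM, 322 and 83 with 0.01 FPKM, 806 and 149 for genes averaging 0.5 FPKM or more, 263 and 80 with no filter, 208 and 215 with relative log expression scaling, 214 and 215 with upper-quartile scaling, 213 and 187 on a scale without hormone and ribosomal RNA repeat genes, 705 and 139 with limma-trend, 1435 and 356 with voom, 1251 and 358 with voom and no filter, and 64 to 327 and 21 to 163 with 1 library left out. The cause was not tested. Of the 10 genes, 1 was lower with voom and no filter (Tacr1), and 0 to 1 with 1 library left out (Galr1, without young library 1).

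With the replicate number as a block, 4 genes were higher and 0 lower, and the difference of Tacr1, -0.0919 FPKM, had p = 0.125, the smallest that exact sign flips of 4 pairs allow. The deviations of same-numbered libraries correlated at 0.037, -0.037, -0.0045 and 0.0064. These values gave no sign of pairing by number, but with 4 libraries per age they cannot exclude a shared batch.

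Leaving out 1 library, the difference ran from -0.108 to -0.0568 FPKM for Tacr1 (exact permutation p 0.029 to 0.086, the higher value without each old library in turn), from -0.00131 to 0.0333 for Vipr1, from -0.0324 to 0.000856 for Vipr2 (positive without old library 4) and from -0.0302 to 0.00214 for Mtnr1a (positive without young library 4). The log2 ratio of Adcyap1 to Vip ran from -1.60 to -0.95 and that of Vipr1 to Vipr2 from 0.049 to 0.59, both with exact permutation p = 0.029 without old library 1, and that of Galr1 to Galr2 from -1.10 to -0.39 (p = 0.029 without young library 1). The fold changes of Vip (0.62 to 1.34 over the settings, adjusted p 0.064 to 0.36 in all), Nmb (0.65 to 1.03) and Adcyap1r1 (0.27 to 0.43) kept sign and call in all 19 alternatives, and Galr2 in all 18.

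Uncalled genes near 0 changed sign: Gal was at -0.14 with either rescaling, -0.12 without hormone and ribosomal RNA repeat genes and -0.028 to 0.069 with 1 library left out, Cga at -0.084, -0.081 and -0.067 and at -0.16 to 0.28, and Junb at -0.15 to 0.068 with 1 library left out. Gpr83 passed with voom (adjusted p = 0.046). Calls were lost in 13 of 19 alternatives for Adcy9, 11 of 19 for Nmu and for Trhr, 8 of 18 for Ghsr, 6 of 19 for Rgs4, 5 of 18 for Crhr2, 2 of 19 for Gnrhr and 1 of 17 (the block) for Brs3. The 17 do not include a fit without old library 1, where Brs3 fell under the filter.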
